A study of Mus musculus with 2 samples.

Results

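Dense clusters of CTCF summits are stretches of the newborn mouse heart genome in which at least 3 peak summits of CTCF follow each other with no gap above 5 kb. They were chosen by the measured peak positions alone: summits of the optimal peak list on chromosomes 1 to 19 were sorted, successive summits at most 5 kb apart were chained, and chains of 3 or more were kept. This gave 1548 clusters that hold 5245 of the 43380 summits on these chromosomes, or 12.1%, out of 44533 summits in the whole list. Another 10012 summits lay in pairs and 28123 stood alone.

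The data come from chromatin immunoprecipitation and sequencing (ChIP-seq) with an antibody against CTCF on heart tissue from the B6NCrl strain on postnatal day 0. There are 2 libraries in 1 group, called replicate 1 and replicate 2 after their labels. The labels number them as biological replicates 1 and 2 but give 1 biosample and 1 donor for both, and this conflict cannot be settled here. Differences between them may therefore be technical only, and the sex was not collected. No genotype change or treatment is named. Peak lists hold no expression values, so the heart label could not be set against marker genes, and the lists do not give the read depth.

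CTCF is a zinc finger protein that binds DNA through a long sequence motif with a direction. A loop-extruding cohesin ring is held up at CTCF sites, chiefly when it meets the site from one side, and many chromatin loops therefore end at sites whose motifs face each other. Neighbouring genes can be insulated by several CTCF sites in a row, as at the imprinting control region upstream of H19 and the 3′ side of the immunoglobulin heavy chain locus. The protocadherin promoters also carry CTCF sites in a row. Rodent B2 repeats, a family of short interspersed elements, have carried CTCF motifs to many places in the mouse genome.

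The sequence beneath the summits is given for clusters whose row of motifs has a clear order. Each line gives a 14-base stretch in capitals, the match to the CTCF core consensus with at most 2 mismatches, and 10 bases on either side in lower case, written 5′ to 3′ on the strand of the core. Sequences and coordinates are those of mm10 (GRCm38), and the coordinates are those of the core. The first set shows the longest row of cores on 1 strand in any cluster. It lies on chromosome 12, between Tmem121 and the immunoglobulin constant gene Igha, 31.9 kb past the 3′ end of Igha. All 7 cores are on the plus strand, while Igha is on the minus strand.
Igha side summit 1 (chr12:113216118-113216131): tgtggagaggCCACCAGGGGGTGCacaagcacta
Igha side summit 2 (chr12:113217462-113217475): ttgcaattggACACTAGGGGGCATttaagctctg
Igha side summit 3 (chr12:113218086-113218099): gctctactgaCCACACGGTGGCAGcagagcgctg
Igha side summit 4 (chr12:113220053-113220066): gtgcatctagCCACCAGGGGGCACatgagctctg
Igha side summit 5 (chr12:113220676-113220689): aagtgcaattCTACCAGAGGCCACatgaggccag
Igha side summit 6 (chr12:113221408-113221421): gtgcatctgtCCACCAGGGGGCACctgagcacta
Igha side summit 7 (chr12:113222216-113222229): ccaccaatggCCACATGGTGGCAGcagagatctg

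The second set shows a row that turns round once. It lies in the introns of Tmem189 on chromosome 2 and ends 0.232 kb upstream of Cebpb, the gene of a basic leucine zipper transcription factor. Summits 1 to 4 have cores on the minus strand and summits 5 to 7 on the plus strand, so the cores in the middle point away from each other. Summit 3 has a core of a form that recurs in repeats.
Tmem189 summit 1 (chr2:167675318-167675331): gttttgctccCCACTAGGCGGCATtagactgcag
Tmem189 summit 2 (chr2:167675703-167675716): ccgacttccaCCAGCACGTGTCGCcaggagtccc
Tmem189 summit 3 (chr2:167678792-167678805): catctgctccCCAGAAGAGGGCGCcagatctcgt
Tmem189 summit 4 (chr2:167680126-167680139): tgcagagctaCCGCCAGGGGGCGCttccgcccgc
Tmem189 summit 5 (chr2:167680852-167680865): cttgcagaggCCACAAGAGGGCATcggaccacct
Tmem189 summit 6 (chr2:167685324-167685337): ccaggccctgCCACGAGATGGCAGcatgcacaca
Tmem189 summit 7 (chr2:167688669-167688682): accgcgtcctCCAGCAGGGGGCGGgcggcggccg

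The third set comes from the cluster with the most summits, on chromosome 7 over Tnnt1 and Tnni3, the genes of slow skeletal troponin T and cardiac troponin I. Of its 9 summits, 3 had a core. Summits 4 and 5 have it on the plus strand and summit 8, in the promoter of Tnni3, on the minus strand.
Tnnt1 to Tnni3 summit 4 (chr7:4513421-4513434): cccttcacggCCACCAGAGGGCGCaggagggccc
Tnnt1 to Tnni3 summit 5 (chr7:4514529-4514542): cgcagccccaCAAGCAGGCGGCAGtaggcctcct
Tnnt1 to Tnni3 summit 8 (chr7:4524403-4524416): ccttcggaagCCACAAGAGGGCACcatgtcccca

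The fourth set is from the cluster behind Tbx2, a T-box repressor of the chamber programme in the developing heart, on chromosome 11. Its first core is on the minus strand and the next 4 are on the plus strand.
Tbx2 summit 2 (chr11:85842183-85842196): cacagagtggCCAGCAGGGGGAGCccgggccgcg
Tbx2 summit 3 (chr11:85843405-85843418): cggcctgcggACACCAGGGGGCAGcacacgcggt
Tbx2 summit 4 (chr11:85844806-85844819): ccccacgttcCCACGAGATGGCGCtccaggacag
Tbx2 summit 5 (chr11:85849270-85849283): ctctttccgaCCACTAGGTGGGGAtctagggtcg
Tbx2 summit 6 (chr11:85850915-85850928): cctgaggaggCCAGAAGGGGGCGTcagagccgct

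The fifth set lies between the imprinted genes Cdkn1c, which encodes a cyclin-dependent kinase inhibitor, and Slc22a18, a membrane transporter, on chromosome 7. All 3 cores are on the minus strand, and the first and second are the same 14 letters.
Cdkn1c to Slc22a18 summit 1 (chr7:143464078-143464091): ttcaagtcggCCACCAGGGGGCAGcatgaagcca
Cdkn1c to Slc22a18 summit 2 (chr7:143466496-143466509): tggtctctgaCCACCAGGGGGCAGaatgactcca
Cdkn1c to Slc22a18 summit 3 (chr7:143470158-143470171): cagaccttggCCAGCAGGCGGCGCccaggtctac

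Most clusters were small. Of the 1548, 1138 (73.5%) had 3 summits, 288 (18.6%) had 4, 74 (4.78%) had 5 and 48 had 6 or more, up to 9 in the cluster over Tnnt1 and Tnni3. From first to last summit they spanned 0.647 to 19.42 kb with a median of 5.31 kb, and together they covered 8.63 Mb, or 0.350% of chromosomes 1 to 19. The 3697 gaps inside clusters had a median of 2179 bp and ran from 199 to 4999 bp, and 228 of them (6.17%) were at most 500 bp. Over the whole list, neighbouring summits were most frequent per kb of gap between 0.5 and 1 kb (2544 per kb), against 1376 per kb between 4 and 5 kb and 1266 per kb between 5 and 6 kb, so that 5 kb does not fall at a break in the gaps. Just inside the limit, 266 clusters had a largest gap of 4.5 to 5 kb, and their members had a median signal of 69.2. Just outside it, a limit of 5.5 kb would add 700 summits with a median signal of 64.0.

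**Figure D1:**
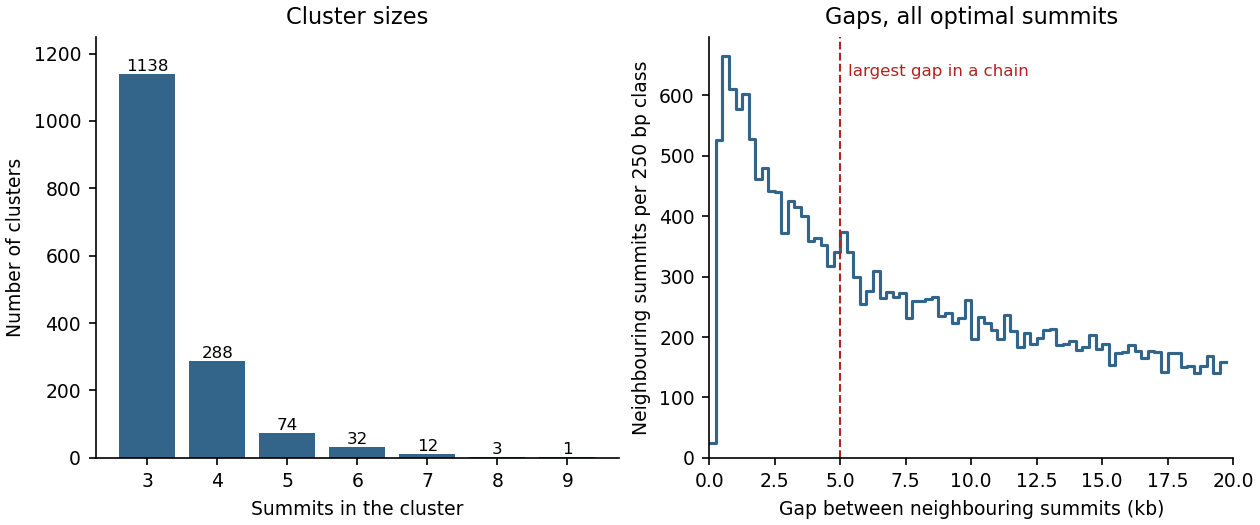
Left, number of clusters (y axis) by summits in the cluster (x axis), with the count above each bar. Right, neighbouring summits of the optimal list per class of 250 bp (y axis) by the gap between them in kb (x axis), with the 5 kb limit as a dashed line. Clusters of 3 summits make up 1138 of the 1548, and the gaps thin out past 5 kb without a break.

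The clusters were also seen when each library was chained alone. With the same number of strongest peaks taken from each library, 12.02% of the summits of replicate 1 (1544 clusters) and 12.4% of those of replicate 2 (1590 clusters) were in clusters, a mean of 12.2% ± 0.277 (SD, n = 2). Of the 1548 clusters, 1242 (80.2%) held a chain of 3 or more in replicate 1, 1200 (77.5%) in replicate 2, 1053 (68.0%) in both and 159 in neither. By this criterion 3 summits of 1 chain of a library inside the span count, whether or not each matches a member. A cluster of 3 that loses a member fails unless another summit stands in, while a larger one may lose some. Recurrence thus tends to go up with size by construction. Both libraries had the chain in 61.9% of the 1138 clusters of 3, 83.7% of the 362 clusters of 4 or 5 and 95.8% of the 48 clusters of 6 or more. The weakest member had a median signal of 32.5 where both libraries held the chain, 17.4 where 1 did and 13.4 where neither did. The strongest member had 170.3, 151 and 95.99 in the same order. Both libraries went into the optimal list, so this is not independent of the choice of clusters.

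Signal here is the signal value of the peak as deposited, on the authors' scale, with pooled values from both libraries together. Members of a cluster mostly differed in signal, and so did neighbours in pairs. For gaps of 0.5 to 1 kb, the median absolute log2 ratio of neighbours' signals was 1.15 in clusters and 1.20 in pairs. For gaps of 2 to 3 kb it was 1.36 in clusters and 1.16 in pairs. The strongest and weakest members are picked by signal, so some distance between them comes with the choice. The strongest member had a median pooled signal of 162 and the weakest 24.1, and the strongest was a median of 5.08 times the weakest (1.08 to 39.3 times). The ratio was above 10 in 329 clusters (21.3%) and below 2 in 204 (13.2%). Among clusters of 3 the strongest member was the first in 363 (31.9%), the middle one in 392 (34.4%) and the last in 383 (33.7%). All members were at or above the median of the whole list, 61.4, in 230 clusters (14.9%), and among the strongest 10% of signals, from 184.7 up, in 2 clusters. Signals of neighbours went together hardly at all. Spearman's rho was 0.042 over 3697 neighbours in clusters and 0.025 over 29637 neighbours outside them, over 5 to 200 kb apart. All these neighbours share the libraries.

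Clustered summits had a median pooled signal of 67.5, against 60.8 for summits outside clusters, a log2 difference of 0.15. In the libraries' own signals the medians were 38.9 in clusters and 34.3 outside in replicate 1, and 32.5 in clusters and 28.9 outside in replicate 2. Clusters were higher on 13 of 19 chromosomes. Summits in pairs had a median of 66.96 and single summits one of 58.7, so the clusters stood with the pairs. The difference turned to -0.05 when the largest gap was set to 3 kb.

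The stronger members carried the recognisable motif more often, as did stronger summits outside clusters. A core was found within 50 bp of 85.5% of the strongest members and 60.1% of the weakest members of the clusters. From the lowest to the highest signal decile, the core share went from 39.5% to 92.7% in clusters and from 43.8% to 91.7% outside. In pairs 2 to 3 kb apart, 81.8% of the stronger and 69.0% of the weaker summits had a core. Over all clustered summits a core was found at 72.7% (3813 of 5245), against 73.5% of summits outside clusters. The share was 72.6% in clusters and 73.4% outside in replicate 1's own strongest peaks, and 69.5% in clusters and 71.3% outside in those of replicate 2. It was lower in clusters on 12 of 19 chromosomes, and the small difference of -0.836 percentage points turned with some settings. Of the clusters of 3, 505 (44.4%) had a core at every summit, 420 at 2 summits, 175 at 1 and 38 at none.

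The closest neighbours looked unlike the rest, in clusters as in pairs. Where a gap inside a cluster was at most 0.3 kb (31 gaps), the stronger summit had a core in 58.1% and the weaker in 48.4%, and 45.2% of the gaps had a promoter summit at either end. Where the gap was 2 to 3 kb (768 gaps), the values were 82.9%, 69.7% and 25.1%. Median signal of the stronger summit was 32.7 in the closest class and 134 at 2 to 3 kb, while that of the weaker was 15.8 and 32.3. In pairs at most 0.3 kb apart, 65% of the stronger and 40% of the weaker summits had a core, and 35% of the pairs had a promoter summit. At 2 to 3 kb these shares were 81.8%, 69.0% and 22.8%. Median signals in pairs were 45.9 and 20.2 in the closest class and 127 and 35.6 at 2 to 3 kb. Whether summits this close are separate sites cannot be told apart in peak lists.

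**Figure D2:**
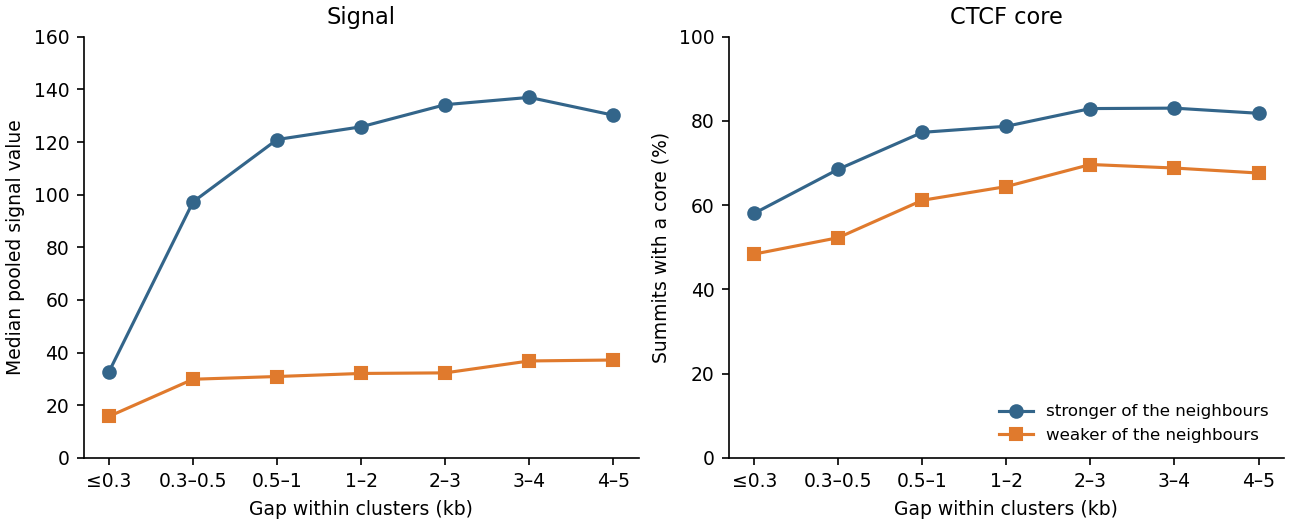
Median pooled signal value (left, y axis) and share of summits with a CTCF core (right, y axis, %) for the stronger and the weaker of neighbouring summits inside clusters, by the gap between them in kb (x axis). Both measures are lowest for gaps up to 0.3 kb, where 58.1% of the stronger and 48.4% of the weaker summits had a core.

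The cores beneath clustered summits were diverse, and the commonest ones lay in repeats. Summits with 1 best core in clusters had 1636 different 14-base cores among 3675, and 1107 of these were seen once. The commonest was CCAGAAGAGGGCAT, at 124 clustered summits (3.37%), against 948 of 27209 (3.48%) outside clusters. CCAGAAGAGGGCAC followed with 103 in clusters (2.80%) and 630 outside (2.32%), and CCAGAAGAGGGCGC with 66 in clusters (1.80%) and 296 outside (1.09%). Of these cores, 98.5% to 100% were repeat-masked in clusters. They differ in their last 2 letters only, and the letters they share are a form known from B2 repeats, although the genome file marks repeats without naming the family. Their summits were weak, with median signals of 37.5, 41.9 and 40.2 in clusters and 30.1, 34.1 and 31.0 outside. The commonest core that was mostly unmasked, CCACCAGGGGGCAG, had a median signal of 166 at 36 clustered summits and 140 at 198 summits outside. Overall 19.1% of clustered cores and 17.8% of those outside were masked, and masked cores in clusters had a median signal of 42.0 against 106 for unmasked ones.

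Both kinds stand side by side in the cluster within Vgll4, a cofactor of the TEAD transcription factors of the Hippo pathway, on chromosome 6. Its 5 cores are all on the plus strand, and 2 of them, at summits 4 and 5, begin with the repeat form.
Vgll4 summit 1 (chr6:114919853-114919866): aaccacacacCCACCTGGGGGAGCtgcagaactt
Vgll4 summit 4 (chr6:114926963-114926976): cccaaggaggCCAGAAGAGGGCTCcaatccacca
Vgll4 summit 5 (chr6:114927584-114927597): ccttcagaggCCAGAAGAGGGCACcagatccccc
Vgll4 summit 6 (chr6:114928633-114928646): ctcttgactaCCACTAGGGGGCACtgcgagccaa
Vgll4 summit 7 (chr6:114929540-114929553): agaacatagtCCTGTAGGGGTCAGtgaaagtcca

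Summit 6 of the Vgll4 cluster, with no mismatch to the consensus, had a signal of 109 in replicate 1 and 100.1 in replicate 2, a mean of 104 ± 6.04 (SD, n = 2). Summit 5, with the repeat form, had 17.0 in replicate 1 and 15.2 in replicate 2, a mean of 16.1 ± 1.31 (SD, n = 2). Both libraries placed summit 6 far above summit 5. Summit 4, also with the repeat form, had 39.2 in replicate 1 and 25.6 in replicate 2, a mean of 32.4 ± 9.65 (SD, n = 2). Summit 1, without the repeat form, was below summit 5, with 10.6 in replicate 1 and 13.9 in replicate 2, a mean of 12.2 ± 2.30 (SD, n = 2). The 2 kinds of core were thus not separated by signal in this cluster.

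Neighbouring cores inside clusters pointed the same way in 55.3% of 2180 cases. They were divergent, a minus strand core followed by a plus strand core, in 26.8% (584), and convergent in 17.9% (391). Neighbouring cores outside clusters at most 5 kb apart, thus within pairs, gave 56.0%, 26.5% and 17.4% of 2556, and those over 5 to 200 kb apart gave 50.7%, 25.3% and 24.1% of 20953. Clusters were thus close to pairs and had fewer convergent neighbours than the wide gaps. Replicate 1 had 18.3% convergent and 27.2% divergent and replicate 2 had 18.3% convergent and 26.7% divergent inside clusters, and convergent was below divergent on 17 of 19 chromosomes. The convergent share inside clusters was 27.1% for gaps up to 0.5 kb and 20.2% for those between 0.5 and 1 kb. In the next classes, each 1 kb wide, it was 15.7%, 19.1%, 16.2% and 13.8%, a course that was not steady. Up to 0.5 kb convergent neighbours outnumbered divergent ones, 23 to 18, and at 0.5 to 1 kb there were 52 of each. Convergent was below divergent in each class from 1 to 5 kb. Summits without a single best core were skipped, so some of the 2180 were over 5 kb apart and are outside these classes.

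**Figure D3:**
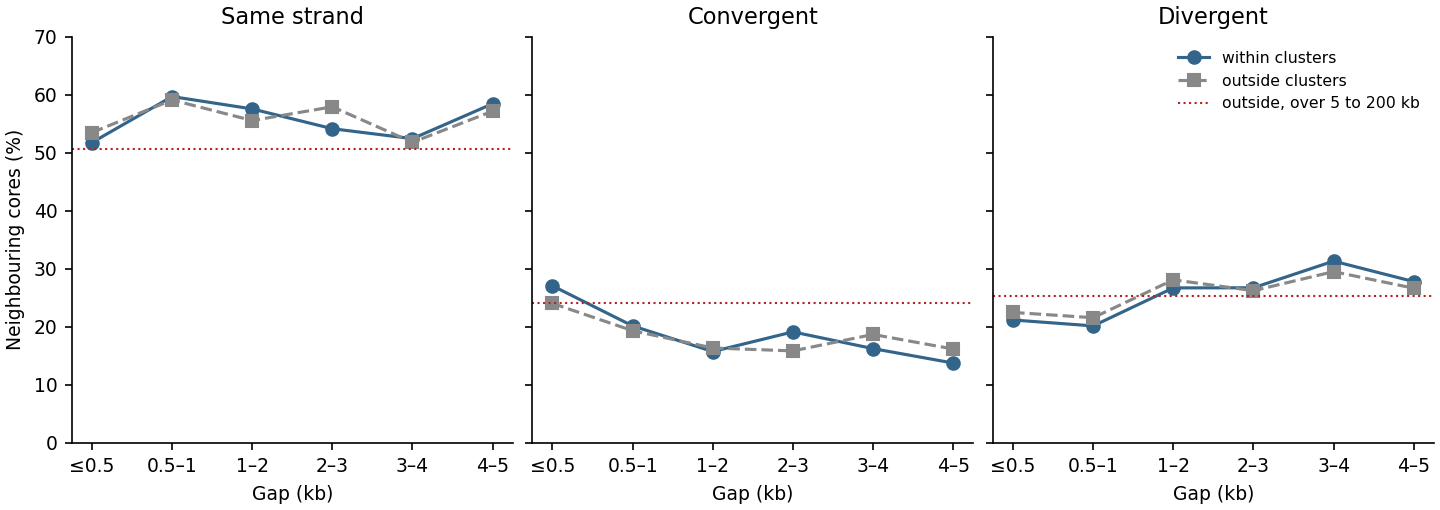
Share of neighbouring cores in % (y axis) on the same strand, convergent and divergent, by the gap between their summits in kb (x axis), within clusters (circles) and outside clusters (squares), with the value outside clusters over 5 to 200 kb as a dotted line. Convergent neighbours within clusters make up 27.1% up to 0.5 kb and 13.8% at 4 to 5 kb, beside the 24.1% of wide gaps outside.

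Among the 451 clusters of 3 with a single best core at every summit, the commonest orders were minus, minus, minus (79 clusters) and minus, minus, plus (78), followed by plus, plus, plus and minus, plus, plus (68 each). The other orders were rarer: plus, plus, minus had 44 clusters, minus, plus, minus 43, plus, minus, plus 37 and plus, minus, minus 34. All cores were on 1 strand in 162 of the 537 clusters of any size with a single best core at every summit (30.2%). The same held in 25 of the 164 clusters with 4 or more cores. Of 35 clusters with 5 or more cores, 4 had all of them on 1 strand: the one beside Igha, with 7, and those in Vgll4, Ppm1h and Ksr2, with 5 each. These 4 were named after their values were seen. Ksr2 is a scaffold of the Ras to MAP kinase pathway and Ppm1h a protein phosphatase.

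Neighbouring members were seldom copies of each other. Windows around neighbouring summits, 100 bp to either side, shared a run of 20 or more bases in 11 of 3697 neighbours inside clusters (0.298%), against 30 of 5006 in pairs (0.599%) and 98 of 29637 outside at over 5 to 200 kb (0.331%). The 11 clusters included one between Sox9 and Sstr2 with 3 cores on the plus strand and one within Tap2, a peptide transporter of antigen presentation.

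Clustered summits lay near more genes than other summits. A clustered summit had a mean of 2.41 protein-coding 5′ ends within 50 kb, against 1.61 for summits outside clusters, 1.97 in pairs and 1.49 for single summits. The mean was higher in clusters on 19 of 19 chromosomes. The median distance to a protein-coding 5′ end was 11.98 kb in clusters and 25.03 kb outside. Promoters, within 1000 bp of any gene's 5′ end, held 16.8% of clustered summits (883) and 13.9% of those outside, against 16.8% in pairs, and the share was higher in clusters on 15 of 19 chromosomes. The difference of 2.94 percentage points became 1.42 and 6.27 with promoter windows of 500 and 2000 bp, 5.18 with a largest gap of 3 kb, and 1.82 and 0.678 when summits within 500 or 1000 bp of a stronger one were dropped. In the libraries' own peaks it was 16.5% in clusters and 13.7% outside for replicate 1, and 17.4% in clusters and 14.0% outside for replicate 2. Coding exons held 3.32% of clustered summits and 2.28% outside, introns 39.3% and 44.4%, and intergenic sequence 34.0% and 34.8%. Windows of that width had a mean of 5.10 CpG in clusters and 4.11 outside, and 7.87% of them in clusters and 12.7% outside had none. CpG-rich sequence, promoters and gene density thus moved together with clustering, and their parts in it were not tested.

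By position, 542 clusters (35.0%) lay within 1 protein-coding gene, 505 (32.6%) outside protein-coding genes and 501 (32.4%) across the end of such a gene. Noncoding genes were left out here, so clusters outside protein-coding genes may still lie in them. Of these 3 kinds, clusters outside protein-coding genes had the strongest summits, with a median signal of 83.5 and a core at 79.0%. The values were 62.3 and 73.7% within 1 protein-coding gene and 57.9 and 65.5% across gene ends. Sorted by the place of each summit, those outside clusters had a like order. Intergenic ones there had 73.1 and 79.0%, intronic ones 56.9 and 75.4%, and promoter ones 46.7 and 55.0%. Intergenic summits in pairs had 86.5 and 78.7%, so this order was not particular to clusters. A protein-coding 5′ end lay between first and last summit in 376 clusters (24.3%). In the 44 clusters (2.84%) with no core at all, 38.4% of the 138 summits were in promoters, the windows had a mean of 8.18 CpG and the median signal was 29.8. Cores were less frequent in promoters generally, at 53.1% of clustered promoter summits and 55.0% of those outside, and among weak summits, so these traits come with the choice of summits without a core. Chromosome 11, with 26.7 summits per Mb, had the highest share of its summits in clusters, 14.9%, and chromosome 12, with 14.6 per Mb, the lowest, 9.26%. Several clusters lay in 1 gene in 34 genes. The gene record Gm20388 on chromosome 8, 4435 kb long, held 13 clusters, and Fry, Gse1 and Kcnq1, the potassium channel gene of an imprinted domain, held 3 each.

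The cluster over Tnnt1 and Tnni3 ran 18.2 kb on chromosome 7 (mm10, chr7:4508288-4526473). Its 9 summits lay in introns (the first 4), other exons (the fifth and seventh) and promoters (the sixth, eighth and ninth), with the 5′ ends of both troponin genes inside. Summit 4, in an intron of Tnnt1, had a signal of 118 in replicate 1 and 82.0 in replicate 2, a mean of 99.8 ± 25.2 (SD, n = 2). Summit 8, 0.179 kb upstream of Tnni3, had 80.4 in replicate 1 and 66.7 in replicate 2, a mean of 73.5 ± 9.73 (SD, n = 2). Summit 6, in the promoter of Tnnt1, had 8.71 in replicate 1 and 6.06 in replicate 2, a mean of 7.39 ± 1.88 (SD, n = 2). The strong summits 2, 4, 8 and 9 were above the other 5 in both libraries. Summits 2 and 9 reached pooled signals of 189 and 165 without a core. In replicate 1's own strongest peaks the longest chain here had 9 summits, and in those of replicate 2 it had 5.

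The cluster beside Igha held 8 summits in 6.84 kb (chr12:113216119-113222963), in intergenic sequence throughout. Summit 3 was its strongest, with 126 in replicate 1 and 100.8 in replicate 2, a mean of 113 ± 17.7 (SD, n = 2). Summit 6 was its weakest, with 15.3 in replicate 1 and 18.9 in replicate 2, a mean of 17.1 ± 2.57 (SD, n = 2), although its core has no mismatch. Signal and closeness to the consensus therefore did not go in the same order here: summit 3 has 2 mismatches. The whole row was found in both libraries, as a chain of 9 summits in replicate 1 and 8 in replicate 2.

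The cluster that ends at Cebpb spanned 13.4 kb (chr2:167675327-167688683), and its 7 summits had a summed pooled signal of 889. Summit 6 was the strongest, with 156 in replicate 1 and 148 in replicate 2, a mean of 152 ± 5.28 (SD, n = 2). Summit 3, with the repeat form of the core, was the weakest, with 9.42 in replicate 1 and 9.48 in replicate 2, a mean of 9.45 ± 0.0452 (SD, n = 2). Both libraries held all 7 as 1 chain.

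The highest summed signal of any cluster, 924.9, was that of 7 intergenic summits in 13.3 kb between Smug1, a uracil DNA glycosylase, and Cbx5, which encodes heterochromatin protein HP1 alpha, on chromosome 15 (chr15:103172715-103185985). All 7 had cores, in the order of 3 minus, 2 plus, 1 minus and 1 plus. The strongest, summit 4, had 147 in replicate 1 and 115 in replicate 2, a mean of 131 ± 22.6 (SD, n = 2), and the weakest, summit 6, had 10.4 in replicate 1 and 12.96 in replicate 2, a mean of 11.7 ± 1.80 (SD, n = 2). The 6 summits between Ralgps2 and Tex35 on chromosome 1 came next, with 914.7 and 6 cores, 5 of them on the minus strand. Between Fbln2, a fibulin of the extracellular matrix, and Wnt7a on chromosome 6, 4 summits with pooled signals of 166 to 275 added up to 876, and their cores ran minus, minus, plus, plus.

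**Figure D4:**
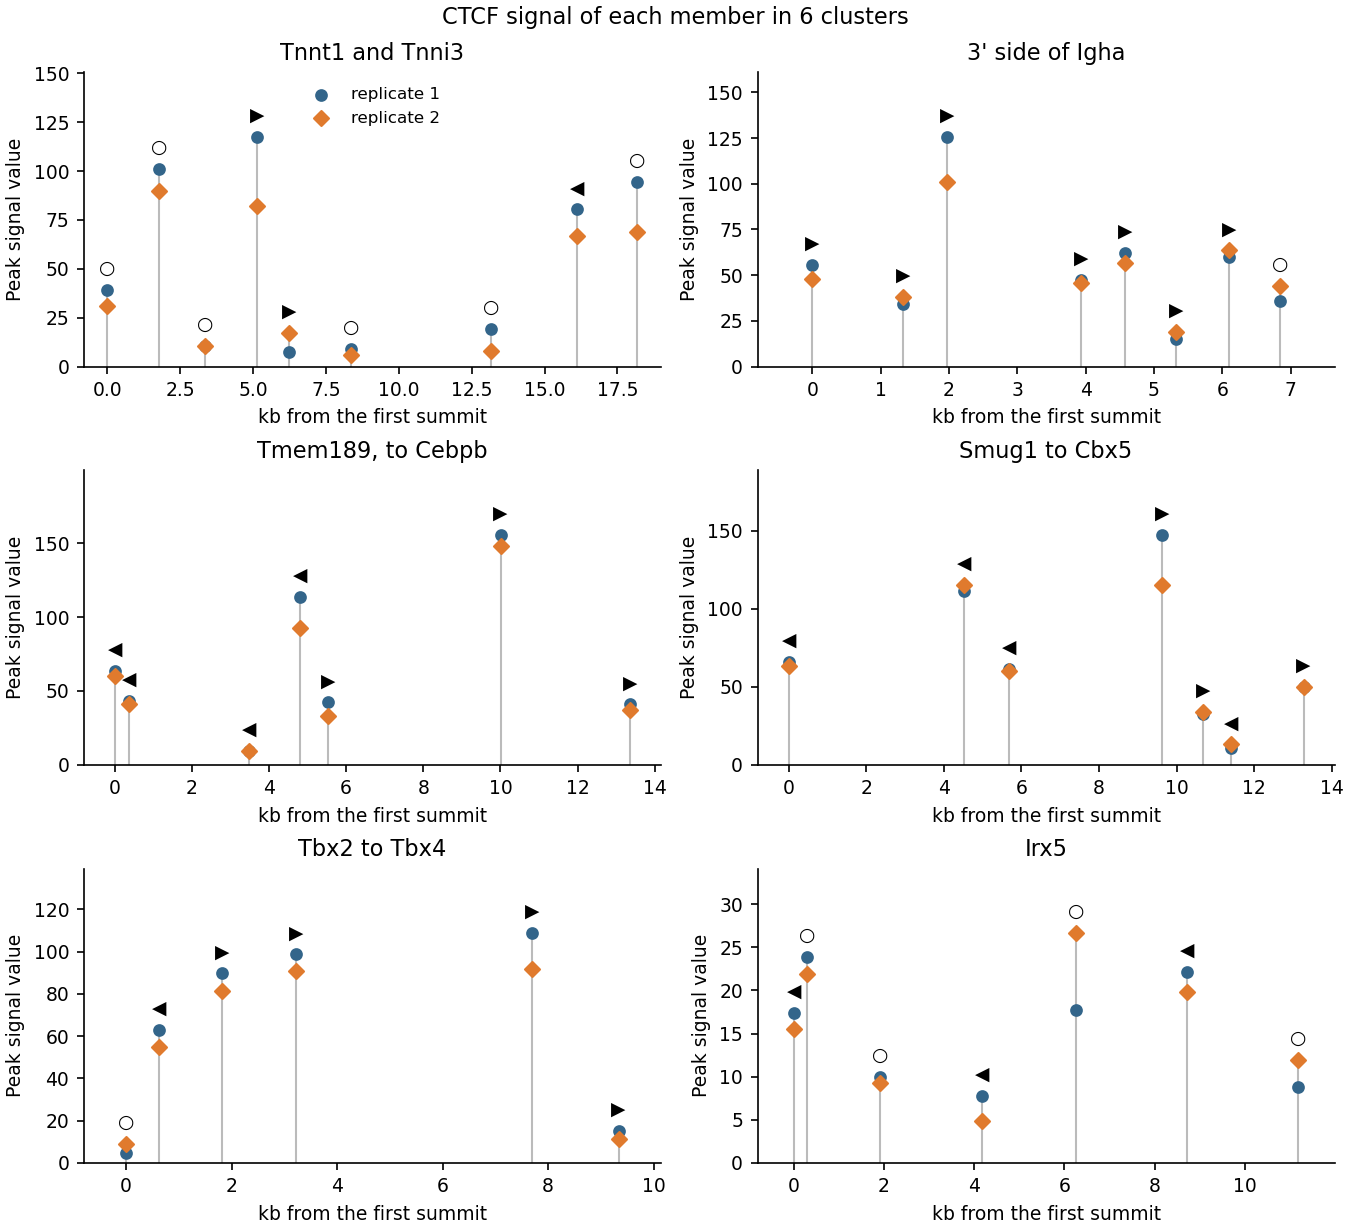
Peak signal value (y axis) in replicate 1 (circles) and replicate 2 (diamonds) of each summit in 6 clusters, by distance from the first summit in kb (x axis). Triangles point right for a plus strand core and left for a minus strand core, and open rings mark summits with none. Both libraries rank the strong summits above the weak ones, and the cluster beside Igha has 7 plus strand cores.

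Other large clusters mixed strong and weak sites. The 8 summits over the ubiquitin ligase genes Fbxo6, Fbxo44 and Fbxo2 on chromosome 4 covered 19.4 kb, with signals of 20.5 to 191 and 5 cores. The 8 upstream of Gnaz, a G protein alpha subunit, had signals of 20.7 to 217 and 7 cores over 18.4 kb on chromosome 10. In Prkag2, which encodes a regulatory subunit of AMP-activated kinase that is mutated in inherited cardiomyopathy, 1 summit of 159 stood among 6 of 14.2 to 24.1, and replicate 1 alone held no chain there. The 7 around Rtn2 and Fosb, a reticulon gene and an AP-1 factor, had signals of 23.2 to 187 and 1 core. Around Ptma, the prothymosin alpha gene, 7 had 23.4 to 190 with 5 cores, and around Nectin2 and Bcam, genes of cell adhesion proteins, 7 had 11.2 to 192 with 5 cores. Between Pwwp2b and Inpp5a, 7 had 29.2 to 246 with 4 cores. The 6 around the 3′ end of Scarb1, the HDL receptor gene, on chromosome 5 had 32.4 to 239 with 6 cores: the last lay within Scarb1 and the first 4 within the noncoding RNA gene Gm32585. The 5 between Lclat1 and Capn13 were strong throughout, at 106 to 245, each with a core.

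The 5 shortest clusters were within 1 kb, and 3 of them lay at promoters. At Golph3l, 3 promoter summits in 0.647 kb had pooled signals of 6.24 to 8.53 and no core, and none of them was in both libraries' relaxed lists. At Snapc5, 3 promoter summits in 0.756 kb had 25.3 to 79.2. In 3425401B19Rik, 3 intronic ones in 0.768 kb had 14.0 to 33.3, and between Creld2 and Pim3, 3 intergenic ones in 0.793 kb had 99.2 to 215. At the promoters of Arl2 and Batf2, 3 in 0.844 kb had 14.3 to 192.

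Of all 20807 protein-coding genes on chromosomes 1 to 19, 1140 (5.48%) had a clustered summit within 10 kb of the 5′ end, the background for the gene lists. Among cardiac transcription factors it was 7 of 34: Irx5, Tbx2, Zfpm1, Prdm16, Irx2, Irx4 and Mef2d. Among sarcomere genes it was 4 of 30: Tnni3, Tpm1, Tnni1 and Myl2. Among calcium handling and channel genes it was 2 of 32, among them Calm3, which encodes calmodulin. Imprinted genes, some of which encode no protein, had 9 of 56, in 7 clusters, and the clustered protocadherins 11 of 57, in 2 clusters on chromosome 18. Histone genes had 2 of 67, keratin genes 1 of 49 and olfactory receptor genes 2 of 1087, while vomeronasal receptor genes had 0 of 326. Any summit lay within 10 kb of 51.9% of all protein-coding genes, but of 6.81% of olfactory and 2.15% of vomeronasal receptor genes. Few genes of these 2 lists could thus lie near a cluster. That share was 30.6% for keratin, 49.3% for histone, 70% for sarcomere, 73.2% for imprinted and 73.5% for cardiac transcription factor genes. It was 73.7% for protocadherins and 81.25% for calcium handling and channel genes. The histone genes share 1 cluster 7.88 kb from Hist2h2bb, with signals of 16.9 to 133, which neither library alone held as a chain. The 5′ end of Olfr750 was 4.61 kb from the nearest of 3 summits of 27.9 to 204, all with a minus strand core. That nearest summit, the weakest, lay in an exon of Olfr750 and the other 2 were intergenic. The 5′ end of Olfr1396 was 5.94 kb from the nearest of 3 summits of 22.2 to 170, which all lay in an intron of another olfactory receptor gene, Olfr56, and the 3 at Krt28 had 14.6 to 91.2. The order of the lists changed with distance: within 50 kb keratin genes had 12 of 49 (24.5%) and sarcomere genes 12 of 30 (40%), against 15.9% of all protein-coding genes. Genes of a list share clusters, and counts this small are a description of these lists only.

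**Figure D5:**
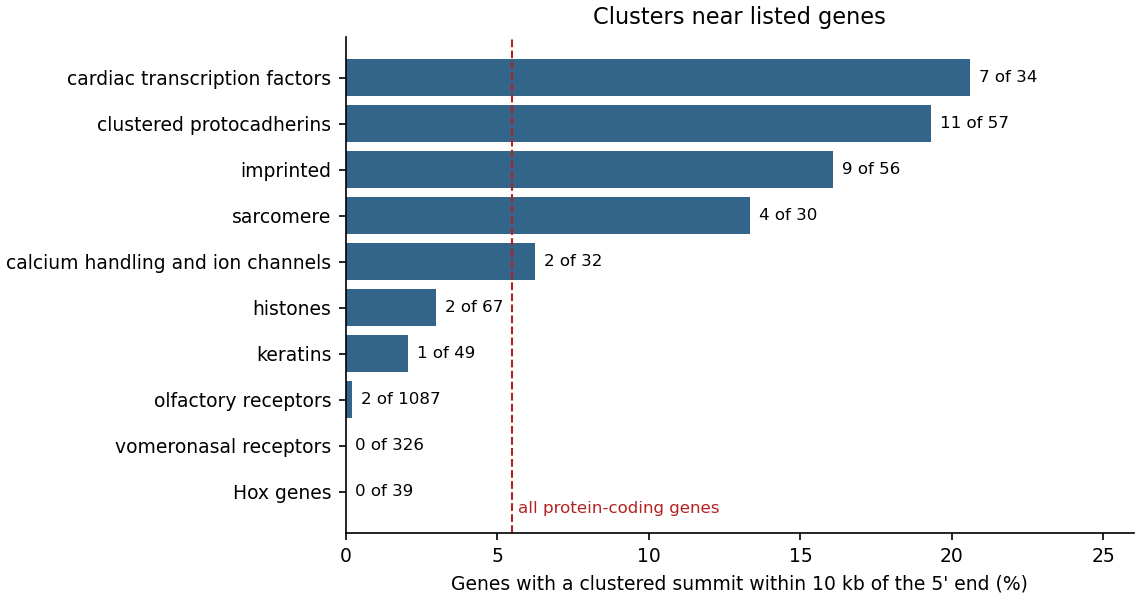
Share of each gene list in % (x axis) with a clustered summit within 10 kb of the 5′ end, with the numbers beside the bars and all protein-coding genes (5.48%) as a dashed line. Cardiac transcription factors have 7 of 34 genes, and Hox and vomeronasal receptor genes have none.

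Among the heart genes, the 7 summits in and before Irx5, an Iroquois homeobox gene of the ventricle, were weak, with pooled signals of 12.99 to 46.3 over 11.2 kb (chr8:92355870-92367060). The highest in pooled signal, summit 2, had 23.9 in replicate 1 and 21.9 in replicate 2, a mean of 22.9 ± 1.42 (SD, n = 2), and no core. Behind Tbx2 pooled signals ran up to 201.4. Summit 5 of that cluster had 109 in replicate 1 and 91.5 in replicate 2, a mean of 100.2 ± 12.2 (SD, n = 2), and summit 6 had 15.1 in replicate 1 and 11.1 in replicate 2, a mean of 13.1 ± 2.81 (SD, n = 2). The Tbx2 row began in an exon of Tbx2, 9.04 kb past its 5′ end. The protein-coding gene record Gm11444 overlapped the row, with summit 5 in an intron and summit 6 in the promoter. Beyond the row, the next gene was Tbx4, another T-box gene, 35.5 kb on. At Tpm1, the alpha-tropomyosin gene, 4 summits with 4 cores had pooled signals of 26.7 to 204, and the lowest sat 3 bp from the 5′ end. The 4 upstream of Calm3 had 22.2 to 184, with cores in the order plus, plus, plus, minus.

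At the imprinted genes, 4 summits began 1.12 kb upstream of H19, a maternally expressed noncoding RNA gene, and had pooled signals of 25.2, 75.4, 87.9 and 52.2 within 2.52 kb. Although the region is known for its CTCF sites, 1 of the 4 had a core within 2 mismatches, the others 3 or 4 mismatches. The 3 between Cdkn1c and Slc22a18 were strong and even: summit 1 had 86.1 in replicate 1 and 79.9 in replicate 2, a mean of 83.0 ± 4.38 (SD, n = 2), summit 2 a mean of 102 ± 11.7 and summit 3 a mean of 85.7 ± 3.33 (SD, n = 2 each). Kcnq1, Peg3 with Usp29, Grb10, Peg13 and Mcts2 each had a cluster of 3.

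In the gamma protocadherins, a gene array in which most promoters have a CTCF site of their own, the cluster from Pcdhgb6 to Pcdhga11 had 4 summits, each in a promoter. They had the even pooled signals of 112, 82.9, 90.1 and 80.5, with gaps of 4924, 4599 and 4154 bp, close to the limit of the chain. None had a core within 2 mismatches. The Hox genes, which also form arrays, had none of 39 genes near a cluster although 30 had a summit within 10 kb. The smallest gaps between summits there were 7.07 kb in Hoxa, 5.32 kb in Hoxb, 4.32 kb in Hoxc and 5.29 kb in Hoxd, so a pair in Hoxc came nearest to a cluster.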

How the data were processed

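Peak lists of CTCF ChIP-seq in newborn mouse heart, on mm10 per the labels, were analysed. Signal values were used as the authors deposited them. Relaxed lists of 300000 peaks were called per library against a control alignment, and filtering by the irreproducible discovery rate (IDR) gave the optimal and conservative lists, per the deposited text files. For aligner and caller, names and versions are not given in the sources here. The depth is unknown, so no counting interval is given. Signals of the libraries were not scaled to each other, so an SD between them includes any difference in scale.

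Summits (peak start plus the deposited offset) were chained in Python 3.11.15 with numpy 2.4.6, pandas 2.3.3 and scipy 1.17.1, and plotted with matplotlib 3.10.9. For each library the strongest peaks, as many as in the optimal list, were treated alike. Genome sequence was GRCm38 and annotation GENCODE M21. A promoter is within 1000 bp of any gene's 5′ end. The CTCF core consensus of 14 bases was searched on both strands within 50 bp of summits. Sequence windows reached 100 bp to either side. Strands were compared where each summit had 1 best core. Members and gene lists were chosen with earlier results of these data known. With 1 group of 2 libraries nothing was tested. Directions were counted over chromosomes. Named clusters are the 12 with most summits, the 8 of highest summed signal, the 5 shortest and, per gene list, those of 2 genes with the largest clusters. Of the genes this rule takes, 1 is not reported here. Other genes were named after their values were seen. Chaining, core search and nearest distances were tested on simulated data. Alternatives were other gaps, sizes, lists, core limits and windows, and either library alone.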

Additional observations from a re-analysis of the deposited data

How the results depend on the processing

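Of 89 alternative values, 35 stayed within the tolerance used, 50 moved past it and 4 turned in direction. The tolerance was 1.5 times for counts, which is wide, and 1 SD between the libraries for shares and differences, which for the convergent share is very narrow. The cause was not tested beyond what each setting changes by construction. The gap and size limits set the counts: 759 clusters with 2478 summits (5.71%) at a gap of 3 kb, 3193 with 11766 (27.1%) at 10 kb, and 410 with 1831 (4.22%) for at least 4 summits. The share in clusters was 11.7% in the conservative list, and 11.1% and 8.80% with summits within 500 or 1000 bp of a stronger one dropped, settings chosen after seeing the data. The log2 signal difference was -0.0452 at 3 kb, 0.10 for at least 4 summits and 0.21 with the 1000 bp drop. The core difference, in percentage points, became 0.211 with at most 1 mismatch, 0.691 with the 1000 bp drop and 0.145 with promoter summits left out, also chosen after seeing the data. It was -4.01 at 3 kb, -0.0590 at 10 kb, -3.51 for at least 4 summits and -1.78 with signal deciles weighted equally. The promoter difference was 5.18 at 3 kb, 2.42 at 10 kb, 3.37 for at least 4 summits, 1.42 and 6.27 with promoter windows of 500 and 2000 bp, 2.49 with protein-coding 5′ ends only, and 1.82 and 0.678 with the 500 and 1000 bp drops. The same-strand share was 55.7% at 3 kb, 54.5% at 10 kb, 54.0% in the conservative list, 52.3% for at least 4 summits, 53.6% with at most 1 mismatch and 55.8% with the 500 bp drop. The convergent share was 19.2% at 3 kb, 18.2% at 10 kb, 18.3% in the conservative list, 19.3% for at least 4 summits, 18.0% with a 300 bp drop, 16.5% and 18.6% with at most 1 and 3 mismatches, and 17.4% and 17.5% with the 500 and 1000 bp drops. Within 50 kb, 3307 genes had a clustered summit, and runs of 16 and 30 bases were shared by 27 and 4 neighbours.

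Leaving out either library gave 1544 to 1590 clusters, 5216 to 5386 summits, 12.02% to 12.4% in clusters, log2 signal differences of 0.13 to 0.19, core differences of -1.83 to -0.850, promoter differences of 2.78 to 3.38, same-strand shares of 54.5% to 55.0% and a convergent share of 18.3%. No paired analysis was possible because the libraries form 1 group. Read depth is not given in the lists, so the weakest members have no counting error attached. A missing core says only that these letters were not found within the window.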
